A study of Drosophila melanogaster with 4 samples.

Results

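Small nuclear RNA (snRNA) genes were analyzed in the transcription start site (TSS) data of Drosophila melanogaster embryos. The members are the 32 genes of biotype snRNA among 18358 annotated genes, and a TSS was assigned to a gene when it lay on the same strand within 200 bp of the gene's annotated start. The embryos were of the strain Canton S wild type, were collected from 0 to 12 h of development and received no treatment, and these features were shared by all 4 samples, 3 of them prepared by capped small RNA-seq (csRNA-seq) and 1 an input sample that was not analysed here. The csRNA-seq assay selects RNAs of 20 to 60 nt, enriches those with a 5′ cap and takes the first base of each read as a start. The coverage of a TSS is its number of reads scaled to 10000000 reads of a library.

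The spliceosome removes introns from pre-mRNA and is built around snRNAs. In the major spliceosome, U1 recognizes the 5′ splice site, U2 pairs with the branch point, and U4, U5 and U6 join as a tri-snRNP whose U6 forms the catalytic core. The minor spliceosome removes a rare kind of intron with U11, U12, U4atac and U6atac in place of U1, U2, U4 and U6. U7 directs the 3′ end processing of histone mRNAs, and 7SK holds the elongation kinase P-TEFb inactive. Most snRNAs are made by RNA polymerase II (Pol II) and carry a guanosine cap. U6 and 7SK are made by RNA polymerase III (Pol III) and carry a methylated 5′ phosphate in place of that cap, and U6atac is made by Pol III in human cells. Promoters of both kinds are recognized by the SNAPc complex.

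The deposited lists hold 1 coverage value per TSS, and each value was a whole number of reads of 1 of 3 libraries, with 7299457, 5931389 and 4070746 reads. One read was therefore worth 1.37, 1.69 or 2.46 units of coverage, and neighboring TSSs of a gene may carry values of different libraries. Of the 613 TSSs in the windows of the snRNA genes, 28.1%, 39.3% and 32.6% carried a value of these libraries in that order, against 26.5%, 41.3% and 32.2% of all TSSs. No spread between replicates can therefore be given, and no test across samples was made. All intervals are exact 95% intervals on the recovered reads and cover counting error only. How reads that align equally well to several copies of a gene were placed, and which library gave the value of a TSS, is not given in the sources used here. The labelled tissue was checked against 8 embryonic patterning genes (eve, ftz, twi, sna, Kr, kni, hb and gt), which all had a TSS within 200 bp of a transcript start, with strongest coverages of 127 to 5304. Of 6 genes of adult tissues, 2 had a TSS (Yp3 with 10.1 and Amy-p with 43.8).

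Of the 32 snRNA genes, 31 had at least 1 TSS in the window, against 57.8% of all annotated genes. The exception was 7SKb, for which no TSS was listed. The TSSs in these windows had a summed coverage of 691619, which was 6.52% of the coverage of the full list. This sum was unevenly distributed. The gene LU alone held 53.2% of it, and the 4 genes with the highest sums held 93.1%. The strongest TSS of a gene, meaning the TSS with the highest coverage in its window, had a median coverage of 142 over the snRNA genes and ran from 3.37 to 321414. Strongest coverages exceeded 1000 at 8 of the 31 genes, against 6.51% of all 10615 genes with a TSS. They were at least 100 at 20 of the 31, against 3179 of these 10615 genes, and under 100 at 11. No other annotated gene start lay on the same strand within 200 bp of a snRNA start. Whether a TSS in these windows also lay within 200 bp of a gene start farther away was not counted. All 32 genes have the same start and end in the RefSeq annotation of this assembly. They lie on 2L (16 genes), 3R (10), 3L (4) and X (2).

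**Figure D1:**
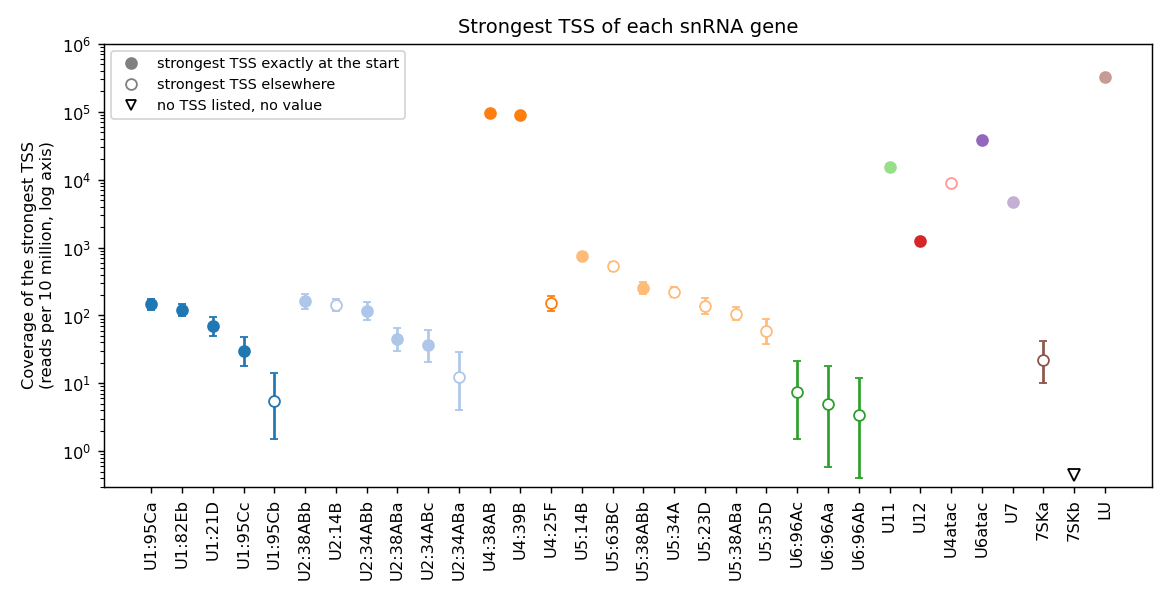
Coverage of the strongest TSS within 200 bp of each snRNA start (reads per 10000000, log axis), with exact 95% Poisson intervals that cover counting error only. Genes are grouped by class and colored by it, filled points mark a strongest TSS exactly at the annotated start, and the triangle marks 7SKb, which has no value. LU, U4:38AB, U4:39B, U6atac and U11 have the highest values, from 15193 to 321414, while the U6 copies lie between 3.37 and 7.37.

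The highest value was at LU (2L, 3046765 to 3046880), a gene annotated as an snRNA without a U class. Its strongest TSS had a coverage of 321414 (190643 reads, interval 319973 to 322860), exactly at the annotated start, which placed LU at rank 2 of the 10615 genes with a TSS. The next position, 2 bp downstream, had 30579, so the strongest TSS was 10.5 times as high as the next. LU carried 59 TSSs between 26 bp upstream and 71 bp downstream of its start. The annotated start thus held 87.3% of the coverage in the window, and the 11 positions within 5 bp of it held 98.4%.

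The 6 classes with a single gene each (LU, U11, U12, U4atac, U6atac and U7) had strongest coverages of 1258 to 321414, with a median of 12056. The 24 genes of U1, U2, U4, U5 and U6, which are present in 3 to 7 copies, had a median of 119. Of these, 2 exceeded 1000, and both were U4 genes. These U4 genes, with 95772 and 91102, lay within the range of the single genes, and the other 22 ran from 3.37 to 755. Of all genes with a TSS, 6.51% exceeded 1000. The 7SK class, with 2 genes, was in neither group. Medians of the classes with several copies did not follow the number of copies. They were 4.91 for the 3 U6 genes, 91102 for the 3 U4 genes, 69.1 for the 5 U1 genes, 81.7 for the 6 U2 genes and 224 for the 7 U5 genes. The part that reads shared between copies play in these levels was not tested.

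U1, which pairs with the 5′ splice site, has 5 genes. Coverage was highest at U1:95Ca, with 147 (107 reads, interval 120.1 to 177), and next at U1:82Eb, with 121 (88 reads, 96.7 to 149), both exactly at the start. These neighbors in the order did not differ beyond counting error (ratio 1.22, interval 0.908 to 1.63). U1:21D had 69.1 (41 reads) and U1:95Cc had 30.3 (18 reads), also exactly at the start, and each was below the copy before it by more than the counting error. The lowest copy was U1:95Cb, where no TSS was listed at the start and the strongest of 2 TSSs had 5.48 (4 reads) at 107 bp upstream. The ratio of the highest to the lowest copy was 26.8 (interval 10.1 to 99.97). U1:95Cb and U1:95Cc lie 1536 bp apart on the same strand in an intron of CG34355.

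Besides the start itself, some U1 copies had a second group of TSSs just upstream. U1:95Ca had 6 TSSs between 16 and 8 bp upstream of the start, the highest with 42.1 at 9 bp upstream. U1:21D had 3 between 10 and 8 bp upstream, the highest with 20.2. Coverage more than 5 bp upstream made up 32.9% and 33.8% of the windows of these genes, against 5.09% at U1:82Eb. No TSS of U1:95Cc was listed upstream of its start, and its second TSS, with 21.9, lay 108 bp inside the gene.

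U2, which pairs with the branch point, has 6 genes, and U2:38ABb had the highest coverage, with 162 (66 reads, interval 125 to 206). U2:14B followed with 142 (104 reads) and U2:34ABb with 118 (48 reads). On their strongest TSSs these 3 copies did not differ beyond counting error. That of U2:14B lay 172 bp inside the gene, however, while those of U2:38ABb and U2:34ABb were at the start. Compared at the start, where U2:14B had 101 (74 reads), the copies were given no interval. U2:38ABa had 45.5 (27 reads) and U2:34ABc had 36.8 (15 reads), which again did not differ from each other beyond counting error. The lowest copy, U2:34ABa, had 12.3 (5 reads, 3.99 to 28.7) at 3 bp downstream of its start and no TSS at the start. The ratio of the highest to the lowest copy was 13.2 (5.38 to 41.99). On the summed coverage of the windows the same pair had a ratio of 2.99, and 69.8% of the coverage of U2:34ABa lay inside the gene. Ranked on these sums, U2:14B was the highest copy, with 289 (199 reads), and U2:34ABc the lowest, with 41.8 (17 reads), a ratio of 6.91.

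The strongest TSS of U2:14B was not at its start. It lay 172 bp downstream, 20 bases before the end of the 192-base gene, while the start itself had 101 (74 reads). Coverage inside the gene, more than 5 bp from the start, made up 64.9% of its window. U2:38ABb differed from this, with 94.4% of its coverage exactly at the start.

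U4, which pairs with U6 in the tri-snRNP, has 3 genes, and 2 of them were among the genes with the highest coverage of the whole list. U4:38AB (2L, 19810734 to 19810875) had 95772 (56806 reads, interval 94986 to 96563) and had rank 3 of all genes with a TSS. U4:39B (2L, 21215036 to 21215178, minus strand) had 91102 (54036 reads, 90335 to 91873) and had rank 4. Both values came from the library of 5931389 reads, and their ratio of 1.05 (1.04 to 1.06) exceeded counting error, which does not include differences between libraries or PCR copies. The order turned on the summed coverage of the windows, where U4:39B had 126335 (75966 reads) and U4:38AB had 108182 (63267 reads), so their order depends on the measure. The remaining gene, U4:25F, had 152 (62 reads, 117 to 195), at 6 bp upstream of its annotated start, and no TSS at the start. The ratio of U4:38AB to U4:25F was 629 (490.4 to 820.3), the widest span within a class. When only TSSs within 5 bp of the start were counted, an alternative chosen after seeing the data, it was 4873.

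Around the start, the U4 genes differed in shape. At U4:38AB, 88.5% of the coverage was exactly at the start and the next position, 2 bp downstream, had 2083. At U4:39B, 72.1% was at the start and 19936 at 1 bp downstream. The summed coverage from 1 to 5 bp downstream was 29.2 times that from 5 to 1 bp upstream at U4:39B, but 1.14 times at U4:38AB. Inside the genes, the strongest position was 119 bp downstream at U4:38AB (300.1, 178 reads) and 120 bp downstream at U4:39B (951, 387 reads). Both lie 23 bases before the gene's end, although they reach only 0.277% and 0.753% of the coverage in the windows.

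U5, which holds the exon ends in both spliceosomes, has 7 genes with strongest coverages of 59.0 to 755. U5:14B was highest, with 755 (551 reads, interval 693 to 821), followed by U5:63BC with 528 (215 reads), and this difference exceeded counting error (ratio 1.43, 1.22 to 1.68). U5:38ABb had 253 (103 reads) and U5:34A had 224 (133 reads), which did not differ beyond counting error. The same held for U5:23D, with 138 (56 reads), and U5:38ABa, with 107 (78 reads). U5:35D was the lowest, with 59.0 (24 reads, 37.8 to 87.7), and the ratio of highest to lowest was 12.8 (8.51 to 20.2). On recovered reads without scaling this ratio was 23.0.

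Less of the coverage of the U5 copies was exactly at the annotated start. Over the 7 copies, 26.0% of the coverage was exactly at an annotated start, against 58.8% for U1, 59.7% for U2 and 79.6% for U4. The strongest TSS was exactly at the start at U5:14B and U5:38ABb. It was 1 bp downstream at U5:34A, U5:23D and U5:38ABa, where the start itself had 4.91, 9.83 and 4.91. It was 2 bp upstream at U5:63BC, where the start had 94.5. Within 5 bp of the start the order of the classes was different, with 72.5% for U5, 68.8% for U1, 67.6% for U2 and 96.6% for U4.

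Most U5 copies also had TSSs deep inside the gene. In 6 of the 7 genes, more than 20% of the coverage lay inside and more than 20 bp from the start, while U5:14B had 2.12% there. The strongest of these positions was 87 to 99 bp downstream of the start in those 6 genes, 29 to 38 bases before the gene's end. At U5:34A it had 128 (52 reads) at 97 bp, compared with 224 at the gene's strongest TSS. At U5:35D the position 94 bp downstream was the strongest of the gene (59.0), above the start with 45.2 (33 reads of a larger library). Whether these 5′ ends carry a cap of their own was not measured. More than 20% of the coverage also lay inside and more than 20 bp from the start at 7SKa (71.8%), U2:34ABa (69.8%), U2:14B (64.9%) and U1:95Cc (39.4%). Such coverage is therefore not particular to U5, and the share over all annotated genes was not computed.

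**Figure D2:**
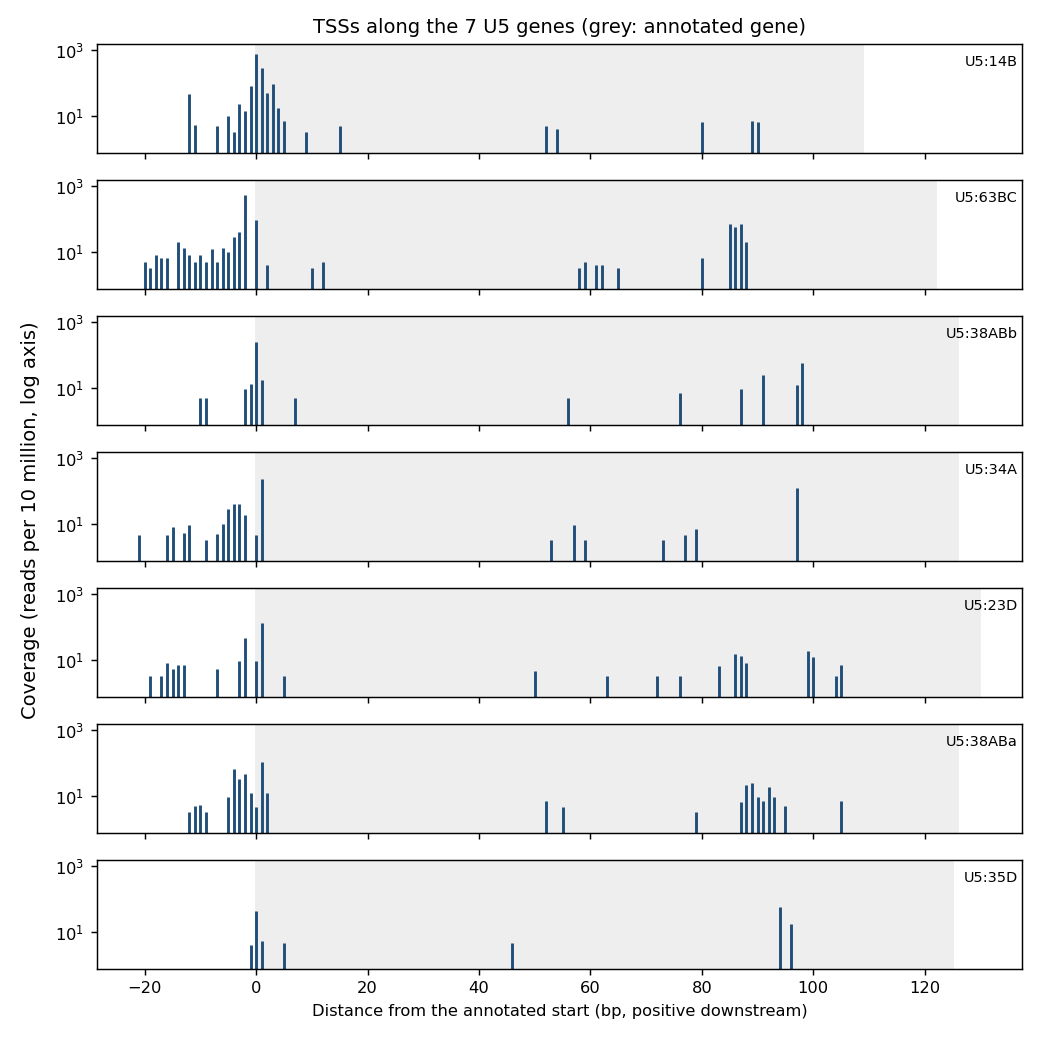
TSSs along the 7 U5 genes, by distance from the annotated start in bp (horizontal) and coverage in reads per 10000000 (vertical, log axis), with the annotated gene in grey. All 7 copies have TSSs close to the start, and 6 have a second group whose strongest position is 87 to 99 bp downstream, while U5:14B has 2.12% of its coverage more than 20 bp inside the gene.

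U6, the catalytic snRNA of the major spliceosome and a Pol III product, has 3 genes in a row on 3R, 604 and 523 bp apart. No TSS was listed at the start of any of them or within 5 bp of it. The 6 TSSs in the windows all lay upstream, between 24 and 6 bp before the start. U6:96Ac had 7.37 (3 reads, interval 1.52 to 21.5) at 10 bp upstream, U6:96Aa had 4.91 (2 reads) at 13 bp upstream and U6:96Ab had 3.37 (2 reads) at 19 bp upstream. With 2 to 3 reads each, the copies did not differ beyond counting error (highest to lowest ratio 2.19, 0.250 to 26.2). A position enters the list only above a minimum of 3, so coverage below it at the U6 starts would not be listed.

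Over the 5 classes with several copies, 52 pairs of copies were compared on their strongest TSSs, wherever in the window these lay. Of the ratios, 42 had an interval above 1. Among the 19 pairs of neighbors in the order of coverage, 11 did. These intervals were not adjusted for the number of pairs, and the copies of a class share sequence, so their values are not independent.

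The minor spliceosome genes had coverages of 1258 to 38006 with a median of 12056, against 3.37 to 95772 with a median of 119 for the 24 genes counted as major, which include the U5 genes shared by both spliceosomes. Without the U5 genes, an alternative chosen after seeing the data, the median of the other 17 was 69.1. U11, the counterpart of U1, had 15193 (11090 reads, interval 14911 to 15478) exactly at its start (3L, 3893330, minus strand), 104 times the highest U1 copy (85.7 to 127) and 40.8 times the sum of the strongest TSSs of all 5 U1 genes. U12, the counterpart of U2, had 1258 (918 reads, 1178 to 1342) exactly at its start and was 7.76 times the highest U2 copy (6.04 to 10.1) and 2.43 times the sum over all 6 U2 genes. U6atac had 38006 (22543 reads, 37512 to 38506) exactly at its start (2L, 8389724), 5157 times the highest U6 copy (1764 to 25009) and 2428 times the sum over the 3 U6 genes. U4atac was the exception, with 8920 (6511 reads, 8704 to 9139), which was 0.0931 times U4:38AB (0.0908 to 0.0956) and 0.0477 times the sum over the 3 U4 genes, but 58.6 times U4:25F (45.6 to 76.5). Thus 3 of the 4 minor genes were above every copy of their counterpart, and U4atac was below U4:38AB and U4:39B and above U4:25F. Each minor class has a single gene, so the comparison is also one of single genes with copies, and these cannot be told apart.

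Among the 6 classes with a single gene, only U4atac had its strongest TSS away from the annotated start. It lay 2 bp downstream, with the next strongest position, 1566, at 3 bp downstream and only 119 (87 reads) at the start itself. Coverage 1 to 5 bp downstream made up 96.0% of its window. U12 had the opposite shape, with 79.7% at the start, 10.3% from 5 to 1 bp upstream and 0.748% from 1 to 5 bp downstream. Of the 8 snRNA genes with a strongest TSS over 1000, 7 had more coverage from 1 to 5 bp downstream than from 5 to 1 bp upstream. U12 was the exception. The same count was not made over other genes, so it is not shown to be a trait of snRNA starts.

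U7, the histone pre-mRNA snRNA and the shortest member at 71 bases, had 4704 (3434 reads, interval 4548 to 4864) exactly at its start (3L, 3593823). A second position 3 bp downstream had 2500 (1825 reads of the same library), so that its strongest TSS was 1.88 times the next, the smallest such ratio among the 8 genes over 1000. These positions together carried most of the window, where 93.0% of the coverage was within 5 bp of the start and 54.4% exactly at it.

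**Figure D3:**
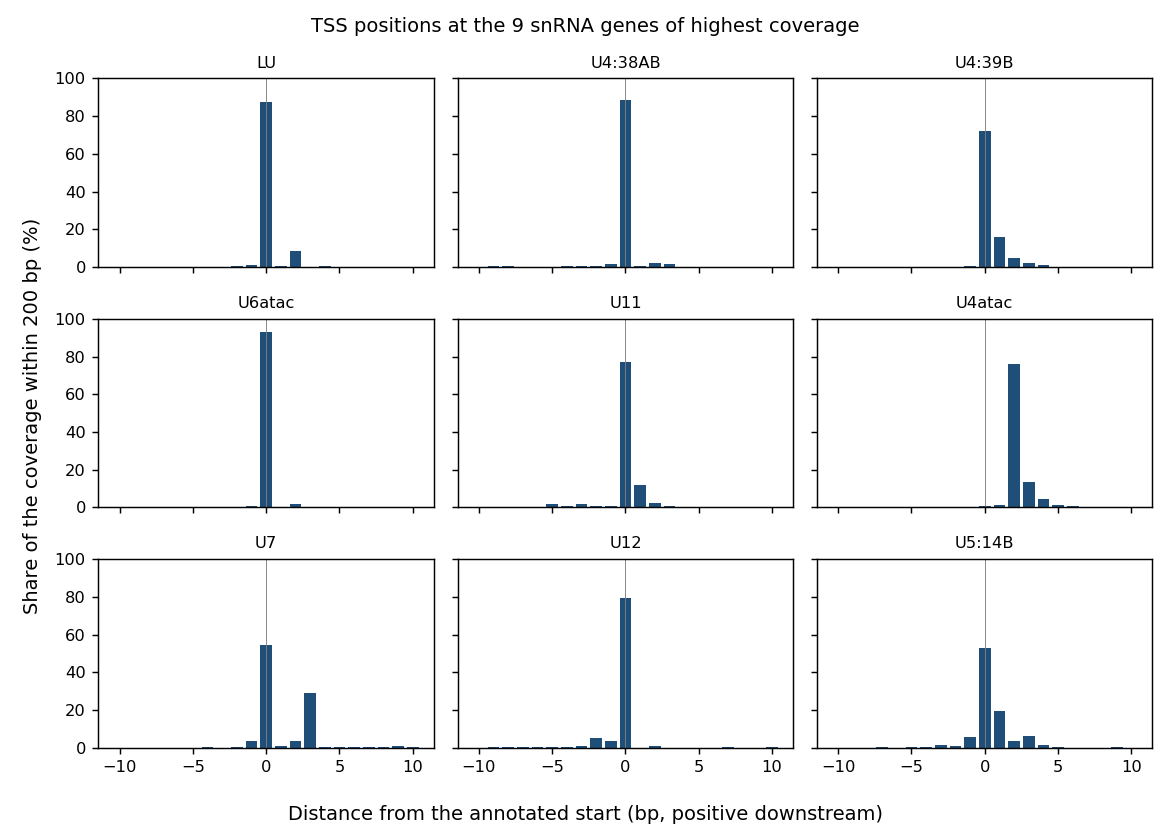
Share of the coverage within 200 bp (vertical, percent) by distance from the annotated start (horizontal, bp) at the 9 snRNA genes of highest coverage. Most have a single dominant position at 0, from 53.1% at U5:14B to 92.9% at U6atac, while U4atac has its main position at 2 bp downstream and U7 a second one at 3 bp downstream.

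The 25 Pol II genes had strongest coverages of 5.48 to 95772 with a median of 147, and all of them had a TSS. Of the 6 Pol III genes, 5 had a TSS, with coverages of 3.37 to 38006 and a median of 7.37. LU was assigned to neither group. Levels of the groups overlapped widely, because U6atac exceeded 23 of the 25 Pol II genes, while the highest U6 copy was below all Pol II genes but 1, U1:95Cb. Without U6atac, the highest Pol III value was 22.1 at 7SKa, with 2 of the 25 Pol II genes below it. The strongest TSS was exactly at the start at 15 Pol II genes and at 1 Pol III gene, U6atac, which was the only Pol III gene with any coverage at its start. The assay enriches RNAs with a 5′ cap, while U6 and 7SK carry a methylated 5′ phosphate in place of the guanosine cap. The part that this selection plays in the levels of the groups was not tested.

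At 7SKa (3R, 7474996, minus strand), a gene of 444 bases, coverage was spread over many positions with few reads. In the window, 34 TSSs summed to 287, with none at the start itself. The TSS closest to it lay 2 bp upstream with 16.9 (10 reads), and 8.23% of the coverage was within 5 bp of the start. The strongest TSS, with 22.1 (9 reads, interval 10.1 to 41.97), was 151 bp downstream. It belonged to a group of 11 TSSs within 20 bp that summed to 129, and 29 further TSSs followed up to the end of the gene. No TSS was listed anywhere in the annotated 7SKb gene (3R, 23432869 to 23433272).

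Exactness was then compared over all snRNA genes. The strongest TSS was exactly at the annotated start at 17 of the 31 genes with a TSS (54.8%, exact binomial interval 36.0% to 72.7%), against 5.83% of all genes with a TSS. It was 1 to 5 bp away at 6 genes and farther at 8. Within 5 bp it lay at 23 of 31 genes (74.2%), against 31.5% of all genes. The 8 genes farther away were the 3 U6 copies, U1:95Cb, U4:25F, U2:14B, U5:35D and 7SKa. Apart from U4:25F and U2:14B, their strongest TSSs had coverages under 60.

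Among other kinds of gene, the strongest TSS was exactly at the gene's start at 5 of 245 snoRNA genes (2.04%), at 0 of 214 tRNA genes (an upper limit of 1.71%), at 51 of 819 other noncoding RNA genes (6.23%) and at 543 of 9252 protein-coding genes (5.87%). The comparison was repeated among genes of high coverage, a choice made after seeing the data. With a strongest TSS of at least 100, it was at the start at 13 of 20 snRNA genes, against 6.64% of all such genes. With at least 1000, it was at the start at 7 of 8 snRNA genes, against 8.83% of all such genes and 48 of 648 protein-coding genes (7.41%). Other noncoding RNA genes rose at these minimums, to 16 of 75 (21.3%) at 100 and 6 of 24 (25.0%, interval 9.77% to 46.7%) at 1000. For snoRNA genes the counts were 1 of 32 and 0 of 10. The median distance of the strongest TSS from the start was 0 bp for snRNA genes, 14 bp for protein-coding genes and 64 bp for snoRNA genes. Genes with several transcript starts were represented by their outermost start here. The annotation of a start and the sharpness of initiation cannot be told apart in this comparison.

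**Figure D4:**
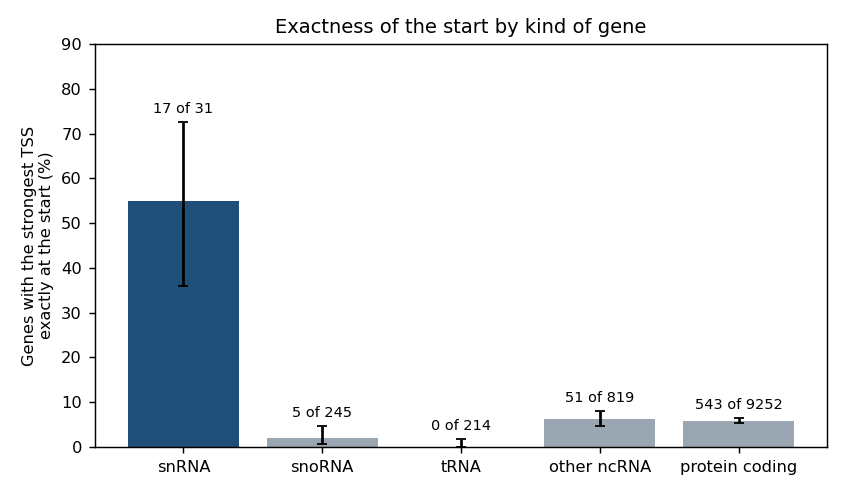
Share of genes whose strongest TSS is exactly at the annotated gene start (vertical, percent of genes with a TSS within 200 bp), by kind of gene, with exact 95% binomial intervals and the number of genes above each bar. With no minimum of coverage, the share is 54.8% for snRNA genes and 6.23% or less for the other kinds shown.

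In coverage rather than genes, 82.4% of the summed coverage of the snRNA genes was exactly at an annotated start and 97.4% within 5 bp. This sum is set by the few highest genes. Gene by gene, the median share at the start was 52.9%, rising to 59.0% within 1 bp and 67.2% within 5 bp. Shares at the start ran from 0% at 7 genes (the 3 U6 copies, U1:95Cb, U2:34ABa, U4:25F and 7SKa) to 94.4% at U2:38ABb. All 32 snRNA genes are longer than the 60 nt of the RNAs selected for sequencing, and whether the reads at the starts come from transcripts being initiated or from 5′ fragments of finished snRNAs was not tested.

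**Figure D5:**
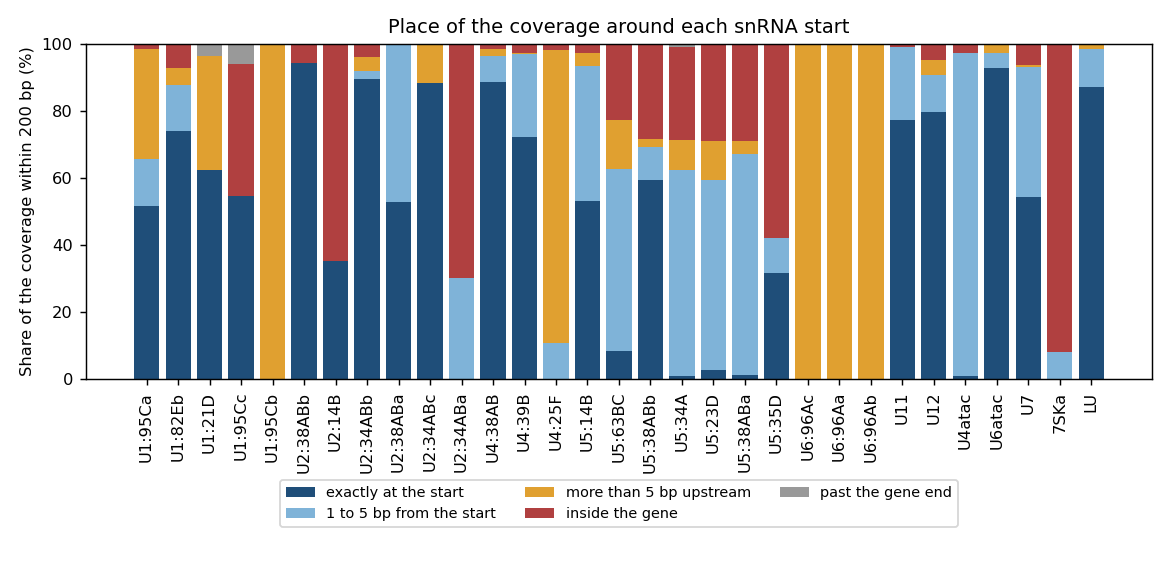
Share of the coverage within 200 bp of each snRNA start (vertical, percent) that was exactly at the start, 1 to 5 bp from it, more than 5 bp upstream, inside the gene or past its end, for the 31 genes with a TSS. Coverage at the start dominates at LU, U6atac and U4:38AB, while the U6 copies have only upstream coverage and 7SKa has 91.8% inside the gene.

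Some snRNA genes lie inside other genes. This holds for 17 of the 32, of which 11 are on the same strand as the host, and 16 lie in an intron of it. The share over all annotated genes was not computed. The genes U4:38AB, U2:38ABa, U2:38ABb, U5:38ABa and U5:38ABb lie in introns of sick, whose own strongest TSS near a transcript start had 1319 (537 reads). Within this group U4:38AB was 72.6 times sick, while the other members had 0.0345 to 0.192 of its coverage. U4:39B was 4503 times its host Atg18b (20.2, 12 reads). No TSS was listed near a transcript start of FASN2, which hosts both LU and U5:23D 1936 bp apart, so that LU at 321414 and U5:23D at 138 share a host with no listed start. U4atac was 13.8 times cno, a host on the same strand, and U7 was 6.59 times Eip63E. High snRNA coverage was therefore found in hosts of low and of high coverage.

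On the opposite strand, 10 of the 32 snRNA genes had at least 1 TSS within 500 bp upstream of the start, against 30.4% of all annotated genes, so this count was near the background. For U2:34ABc and U5:34A, which are transcribed away from each other with starts 287 bp apart, these included the TSSs of the partner gene, with 224 and 36.8. The highest of the others was 17.8 (13 reads) at 263 bp upstream of U4atac. LU, with the highest coverage of the snRNA genes, had a single one, with 3.37 (2 reads) at 139 bp upstream. Inside the genes, opposite-strand TSSs were listed at U4:38AB, U5:23D and U11, with at most 5.06.

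Genes of snRNA synthesis and snRNP assembly were examined from a fixed list of 48, of which 47 matched the annotation. The list holds SNAPc subunits, Integrator (the complex that cleaves nascent snRNAs), the little elongation complex, basal transcription factors, cap and export factors, assembly factors such as Smn, Sm and Lsm proteins, and proteins of the U1, U2 and 7SK snRNPs. It was fixed with earlier results of these data known. Of these 47 genes, 46 had a TSS within 200 bp of a transcript start, against 69.9% of protein-coding genes. Their median strongest coverage was 42.1, compared with 52.1 over protein-coding genes, and 21 lay above the latter. The highest were bin3, whose human homolog methylates the 5′ end of 7SK, with 4785 (1948 reads), and IntS6, an Integrator subunit, with 1778 (1298 reads). Ice2 of the little elongation complex had no TSS, and the lowest listed values were 3.37 (2 reads) at Lsm11, a protein of the U7 snRNP, and 12.3 (5 reads) at both Pbp45, a SNAPc subunit, and Tbp, the TATA-binding protein.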

How the data were processed

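The authors trimmed adapters, aligned reads to dm6 with STAR (2.7.9a), and called TSSs from read 5′ ends with HOMER (4.11) and a minimum of 3. This full list was used, and a deduplicated list with the most covered TSS of each cluster (bedtools 2.30.0) served as an alternative. Versions are from the submitters' processing notes. Sequences made mostly of degenerate bases, which in a soft-masked genome include repeats, were dropped by the authors at their later motif step. How the input entered the calls is not given in the sources used here. The deposited coverage is a signal scaled to 10000000 reads, with 1 value per TSS and no value per sample. Whole reads (tolerance 1e-06 of the value) were recovered for 232302 of 232302 TSSs, in libraries of 7299457, 5931389 and 4070746 reads. TSSs were placed against starts of Ensembl release 115 genes (BDGP6.54, the coordinates of dm6), transposable elements left out, on the same strand and within 200 bp. Intervals are exact 95% Poisson or binomial intervals and cover counting error only, since PCR copies of a molecule are not told apart. No test across samples was possible. The steps were tested on simulated data. Python 3.11.15, pandas 2.3.3, NumPy 2.4.6, SciPy 1.17.1 and matplotlib 3.10.9 were used.

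The members and the lists of genes were chosen with earlier results of these data known. Every snRNA gene is accounted for, the highest and lowest copies of U1, U2, U4, U5 and U6 and every class with a single gene in full, and of the listed protein genes the 2 highest and 2 lowest. Values of genes outside this rule were chosen after they were seen. Polymerases were assigned from textbook knowledge. DNA sequence and the input library were not used here. Alternatives were the distance, the list of TSSs, minimums of reads and coverage, the tolerance on the start and the measure of a gene.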

Additional observations from a re-analysis of the deposited data

How the results depend on the processing

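The number of snRNA genes with a TSS (31) was 31 within 50 bp and within 500 bp, 30 in the deduplicated list, 29 with at least 4 recovered reads and 27 with coverage of at least 10. The number with the strongest TSS at the start (17) was 17 to 23 under the alternatives, and the median share at the start (52.9%) was 54.4% to 67.2% by distance, tolerance and minimum and fell by less than 3 percentage points on recovered reads. Ratios of copies keep the pair chosen on the strongest TSS. That of U2:38ABb to U2:34ABa moved from 13.2 to 2.99 on summed coverage, while the highest and lowest U2 sums, at U2:14B and U2:34ABc, had a ratio of 6.91. The ratio of U4 copies moved from 629 to 916 and that of U5 copies from 12.8 to 23.0 on recovered reads, because the values come from libraries of different size. Within 5 bp of the start the U4 ratio was 4873, as the main TSS of U4:25F is then left out. Coverage exactly at the start gave no ratio for U1, U2, U4 and U6, whose lowest copy has none there. The ratio of the Pol II to the Pol III median (19.9) reversed to 0.00312 on coverage exactly at the start, where U6atac is the only Pol III gene left, and was 23.9 without U6atac and 19.3 without U4:38AB and U4:39B. The ratio of the minor to the major median (101) was 74.4 to 93.9 under the alternatives other than without the U5 genes, where it was 174. The alternatives within 5 bp of the start, without U6atac, without the U4 genes, without the U5 genes, with the highest copy of each major class, with at least 20 reads, and with a coverage of at least 100 for the share over all genes (5.83%, then 6.64%) were chosen after seeing the data.

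No paired analysis was possible because each TSS has 1 value for the whole experiment. Replicates could not be left out in turn for the same reason. Values under about 10 rest on 2 to 7 reads, and positions under the minimum are not listed.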

Other observations

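Besides U2:34ABc and U5:34A, further pairs of U2 and U5 genes were transcribed away from each other at short distance. U5:14B had 755 and its partner U2:14B, 555 bp away on X, 142 (101 at its start). U5:38ABa and U2:38ABb, 572 bp apart, had 107 and 162, and U2:38ABa and U5:38ABb, 609 bp apart, had 45.5 and 253. The U5 gene was thus higher in 3 of these 4 pairs, counting U2:34ABc and U5:34A. Over all copies, the median was 224 for the 7 U5 genes and 81.7 for the 6 U2 genes, so this count is not read as a trait of the pairs.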
